A study of Mus musculus with 9 samples.

Results

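Glycosylphosphatidylinositol (GPI)-anchored proteins are held in the outer leaflet of the plasma membrane by a lipid instead of a membrane-spanning segment. The anchor is built in the endoplasmic reticulum, attached to the finished protein in exchange for a C-terminal signal, and can be cut to release the protein from the cell. On lymphocytes such proteins serve as adhesion molecules, complement regulators and protease receptors, and several are the antigens by which lymphocytes are sorted. Described here are Thy1, which encodes the Thy-1 (CD90) glycoprotein, and 7 other genes of GPI-anchored surface proteins, Ly6a, Ly6e, Cd48, Cd52, Cd24a, Cd55 and Plaur. They were chosen by gene symbol. All 8 symbols were found, once each, among 23466 genes in the count table, and all 8 were among the 15117 genes that passed the filter on low counts.

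RNA was sequenced from sorted ILC2s, the type 2 cytokine-producing innate lymphocytes of barrier tissues, of wild-type C57/Bl6 mice aged 10 weeks. There were 3 groups of 3 libraries. Injured meninges came from mice given an 80 kdyn contusion of the spinal cord and killed 24 h later, uninjured meninges from mice without injury, and uninjured lung from mice without injury. Meninges here are those of the brain, so the tissue sampled was not the tissue struck. No group was labelled as sham-operated, so the contusion and the surgery around it cannot be told apart. The sort gate was CD45+, DAPI-, Lin-, St2+ and Thy1+, so Thy-1 protein was itself part of the gate. The design text gives this gate for cells of dissected meninges, and the lung cells are labelled only as sorted ILC2s. Each group was a pool of 5 mice, and no label says if the 3 libraries of a group had separate pools. The p-values thus rest on library-to-library spread, part or all of which may be technical.

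Library totals ranged from 13407277 to 18253462 counts. Levels are in CPM, counts relative to the library total after scaling by the trimmed mean of M values. A gene with no reads could have had up to 3, equal to 0.163 to 0.239 CPM depending on the library. The sort-gate gene Il1rl1, which encodes ST2, ranged from 1929 to 2694 CPM in injured meninges, 1864 to 2537 in uninjured meninges and 1852 to 2410 in lung. Ptprc, which encodes CD45, ranged from 1377 to 2069, 1301 to 1706 and 1385 to 1914 CPM in the same groups, so they overlapped in both. The library injured meninges 2 had the fewest detected genes, 13465 against 15761 to 18452 in the others, and a median rank correlation across genes of 0.797 to the other libraries of its group, against 0.825 to 0.873 for the remaining 8 libraries. In such bulk samples, fewer cells of a type and less RNA per cell cannot be told apart.

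The list of genes was drawn up with earlier results of these data known, among them the lower Thy1 and the higher Plaur of injured against uninjured meninges. For these 2 genes that difference is given as a description, with no test. Every other difference was tested with edgeR's quasi-likelihood F test in a fit of all 9 libraries, with Benjamini-Hochberg adjustment over all genes tested and a threshold of 0.05. A gene is said to be called when it passed.

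Thy1 is a small immunoglobulin-superfamily protein of T cells, neurons, fibroblasts and innate lymphoid cells. It had 92.5, 60.1 and 51.4 CPM in injured meninges, 279, 167 and 229 CPM in uninjured meninges, and 153, 166 and 138 CPM in lung. Every injured library lay below every uninjured meningeal and every lung library. Thy1 averaged 68.0 ± 21.6 CPM in injured meninges and 225 ± 56.3 CPM in uninjured meninges (SD, n = 3 each), a 3.31-fold lower mean and a log2 fold change of -1.73 ± 0.29 (SE). With each library left out in turn and under the other alternatives, this log2 fold change lay between -2.01 and -1.54, and it was -1.64 without injured meninges 2. Injured meninges also lay below lung, where Thy1 averaged 152 CPM (138 to 166, n = 3), with a log2 fold change of -1.16 ± 0.29 that missed the threshold (edgeR adjusted p = 0.078). That comparison uses the same injured libraries, and injury and tissue both differ in it. Of 16 alternatives 4 brought it past the threshold, namely DESeq2 (adjusted p = 0.0069), edgeR without the filter on low counts (adjusted p = 0.026), edgeR with the replicate number as a block (adjusted p = 0.049) and edgeR without injured meninges 1 (adjusted p = 0.031). Between uninjured meninges and lung the log2 fold change of Thy1 was 0.57 ± 0.29 (95% interval -0.04 to 1.17, edgeR adjusted p = 0.67), and the lowest meningeal library, at 167 CPM, stood next to the highest lung library, at 166 CPM.

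T cells, fibroblasts and neurons also carry Thy-1, and transcripts that mark them were measured in the same libraries. The summed level of 10 T cell markers was 60.9 to 252 CPM in injured meninges, 101 to 139 in uninjured meninges and 52.4 to 120 in lung. Lat, a signalling adaptor, gave the largest part over all libraries, with 40.5, 142 and 38.9 CPM in injured and 38.3, 68.3 and 85.7 CPM in uninjured meninges. Of the CD3 chains that define T cells, Cd3g had 10.8, 91.9 and 0.313 CPM in injured meninges and 27.4, 8.32 and 2.35 CPM in uninjured meninges. Cd3e had 0.478, 8.35 and 0.752 CPM in injured meninges and 9.96, 0.387 and 3.83 CPM in uninjured meninges, and Cd3d had 0.478, 0.716 and 0.125 CPM in injured meninges and 2.34, 0.452 and 30.7 CPM in uninjured meninges. The T cell sum and Cd3g were highest in injured meninges 2, where both exceeded the level of Thy1. The sum of 10 fibroblast markers was 38.1, 16.4 and 3.89 CPM in injured and 84.4, 4.65 and 41.0 CPM in uninjured meninges. In lung it was 190, 136 and 331 CPM. The sum of 10 neuron and glia markers was 77.7 to 202, 150 to 202 and 106 to 159 CPM in the same order of groups. Most of it came from Mbp, a myelin gene, at 72.4 to 202, 143 to 174 and 95.7 to 147 CPM. The neuronal markers Snap25, Nefl, Nefm, Stmn2 and Syt1 each had at most 8.17 CPM in any library. The sums of injured and uninjured meninges overlapped in each of these lists, and the fibroblast sums were highest in lung. Within each meningeal group the fibroblast sum ranked the libraries in the same order as Thy1, and within lung in the reverse order. What part these cells had in the level of Thy1 was not tested.

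**Figure D1:**
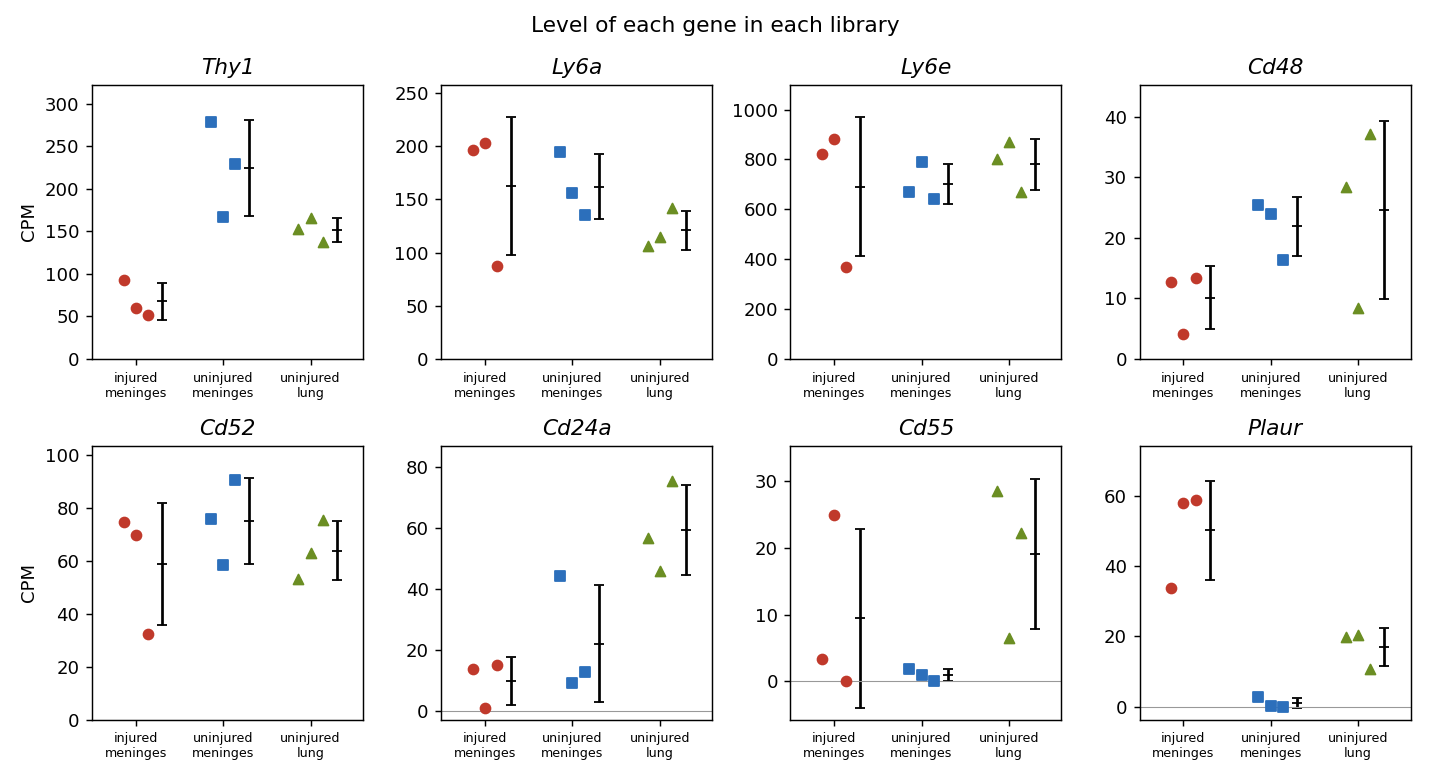
Level in CPM of each of the 8 genes in each library (points) with the group mean and SD beside them (black bars), for injured meninges, uninjured meninges and uninjured lung with 3 libraries each. Injured meninges lay below the other groups for Thy1, at 51.4 to 92.5 CPM, and above them for Plaur, at 33.9 to 58.9 CPM, while the groups overlapped in Ly6a, Ly6e and Cd52.

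Ly6a and Ly6e belong to the Ly6 family of small GPI-anchored proteins and lie near each other in 1 gene cluster. Ly6a encodes Sca-1, a marker of stem cells and activated lymphocytes, and Ly6e encodes a protein first studied on thymocytes and known from viral entry. Ly6e was the most abundant of the 8 genes, with 820, 880 and 371 CPM in injured meninges, 669, 791 and 642 in uninjured meninges and 802, 868 and 670 in lung. Ly6a had 197, 203 and 87.7 CPM in injured meninges, 195, 156 and 135 in uninjured meninges and 106, 115 and 141 in lung. All 3 groups overlapped for both genes, and injured meninges 3 was the lowest of all 9 libraries for both. The log2 fold change of injured over uninjured meninges was -0.02 ± 0.26 for Ly6e (95% interval -0.57 to 0.53) and 0.00 ± 0.31 for Ly6a (95% interval -0.66 to 0.67). Neither was called (edgeR adjusted p = 0.995 and 1), and differences of a size inside these intervals are not excluded.

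Cd52 encodes a very short, heavily glycosylated peptide that is the target of the antibody alemtuzumab in humans. It had 74.7, 69.5 and 32.5 CPM in injured meninges, 75.8, 58.2 and 90.5 in uninjured meninges and 53.0, 62.9 and 75.4 in lung. The groups overlapped, and the log2 fold change of injured over uninjured meninges was -0.35 ± 0.38 (95% interval -1.15 to 0.46, edgeR adjusted p = 0.86). Injured meninges 3 was again the lowest of the 9 libraries. That library was the lowest of its group for 5 of the 8 genes, namely Thy1, Ly6a, Ly6e, Cd52 and Cd55, and the highest for 3, Cd48, Cd24a and Plaur.

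Because injured meninges 3 was low for several of these genes together, Thy1 was also set against other genes of the same library, which does not depend on how libraries are scaled. These ratios were chosen after the values were seen. Per 100 Ly6e counts there were 11.3, 6.83 and 13.9 Thy1 counts in injured meninges, 41.7, 21.1 and 35.7 in uninjured meninges and 19.0, 19.1 and 20.5 in lung. The injured libraries lay below all others. Per 100 Ly6a counts there were 29.7 to 58.6 Thy1 counts in injured meninges, 107 to 170 in uninjured meninges and 97.3 to 144 in lung. Per 100 Cd52 counts there were 86.5 to 158, 253 to 368 and 183 to 288 in the same order. The ratio of Thy1 to each of these 3 genes was thus lower in injured meninges, with no overlap. The lower Thy1 of these libraries was known when the list was drawn up. The log2 fold changes of Ly6e, Ly6a and Cd52 in injured over uninjured meninges were -0.02, 0.00 and -0.35. These ratios thus largely restate the known difference and are no separate result. Against Cd48 and Cd24a the ratios of injured and uninjured meninges overlapped. Injured meninges 2 had 756 Thy1 counts with 52 of Cd48 and 12 of Cd24a. Uninjured meninges 2 had 2583 with 372 and 146. A ratio shows that the genes of a pair differed unequally and not which of them did. Of the summed level of all 8 genes, Thy1 made up 6.73 ± 1.86% in injured meninges, 18.6 ± 4.17% in uninjured meninges and 12.3 ± 0.52% in lung (SD, n = 3 each), and Ly6e made up 64.1 ± 4.63%, 58.1 ± 6.98% and 62.9 ± 5.09%.

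**Figure D2:**
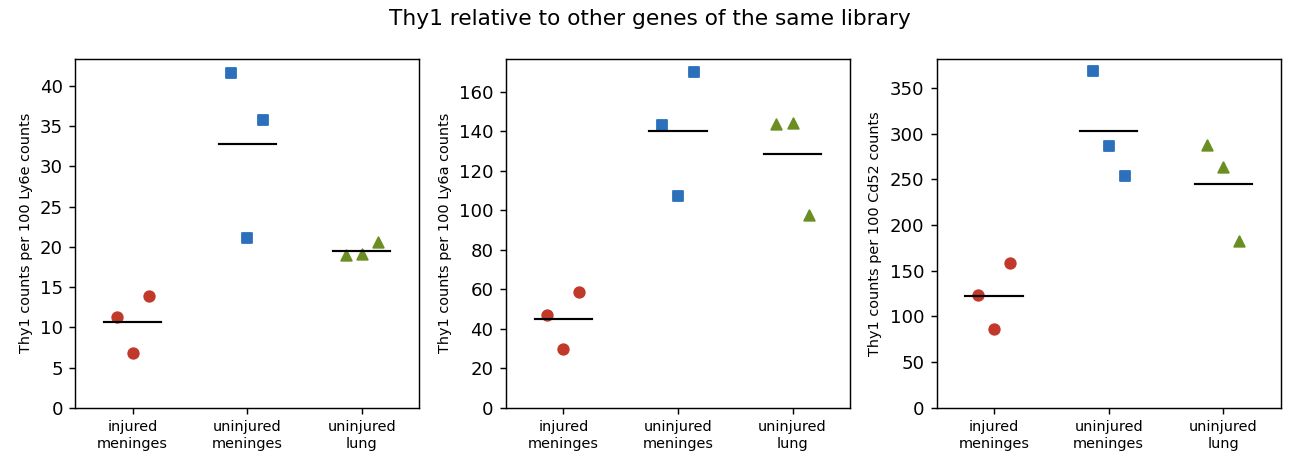
Thy1 counts per 100 counts of Ly6e, Ly6a or Cd52 in the same library (points, 3 libraries per group), with the group mean as a line. The injured meningeal libraries, at 6.83 to 13.9 Thy1 counts per 100 Ly6e counts, lay below the uninjured meningeal and lung libraries in each panel. Ratios to Cd48 and Cd24a, which overlapped between injured and uninjured meninges, are not drawn.

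Plaur encodes uPAR, the receptor that holds urokinase at the cell surface and binds vitronectin and integrins. It had 33.9, 58.0 and 58.9 CPM in injured meninges, 2.78, 0.26 and 0 CPM in uninjured meninges and 19.7, 20.4 and 10.8 CPM in lung. The 3 groups did not overlap. The raw counts behind these levels were 568, 729 and 940 in injured meninges, 51, 4 and 0 in uninjured meninges and 321, 277 and 169 in lung. Plaur averaged 50.3 ± 14.2 CPM in injured meninges and 1.01 ± 1.53 CPM in uninjured meninges (SD, n = 3 each), a ratio of means of 49.7 and a log2 fold change of 5.60 ± 1.13 (SE). Its size rests on few counts, since without uninjured meninges 1 the fitted log2 fold change was 8.50, and over the other 15 alternatives it lay between 5.03 and 6.52. Uninjured meninges lay below lung, where Plaur averaged 17.0 ± 5.34 CPM, with a log2 fold change of -4.04 ± 1.06 that missed the threshold (95% interval -6.29 to -1.79, edgeR adjusted p = 0.13). This too rests on uninjured meninges 1, without which it was called (log2 fold change -6.94, edgeR adjusted p = 0.0062). In injured meninges Plaur lay above lung by a log2 fold change of 1.57 ± 0.94 (95% interval -0.44 to 3.57, edgeR adjusted p = 0.52). Both comparisons with lung reuse meningeal libraries of the difference in Plaur that was known beforehand. Macrophages and neutrophils also make uPAR. The sum of 10 monocyte and macrophage markers was 66.4 to 169 CPM in injured meninges, 34.5 to 103 in uninjured meninges and 32.6 to 487 in lung, and that of 9 neutrophil markers was 0 to 65.4, 4.90 to 92.2 and 2.36 to 10.2 CPM. All 9 neutrophil markers were at 0 in injured meninges 2, where the macrophage markers ranged from 0 (Adgre1 and C1qb) to 30.4 CPM (Cd68). Across the 3 injured libraries the macrophage sum was 169, 81.4 and 66.4 CPM, the reverse of the order of Plaur. In uninjured meninges that sum was 103, 34.5 and 47.8 CPM, and library 1 was the highest for both. The macrophage sum was 362, 32.6 and 487 CPM in the 3 lung libraries, of which Lyz2 alone gave 326, 6.78 and 425 CPM. What part myeloid cells had in the level of Plaur was not tested.

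Cd55 encodes decay-accelerating factor, which breaks up complement convertases on the cell's own surface. It had 3.41, 24.9 and 0 CPM in injured meninges, 1.85, 0.90 and 0 CPM in uninjured meninges and 28.5, 6.55 and 22.3 CPM in lung. Injured meninges spanned from 0 to within the lung range, and its high value came from injured meninges 2 alone, with 313 counts against 57 and 0 in the others of its group. The log2 fold change of injured over uninjured meninges was 3.34 ± 1.66 (edgeR adjusted p = 0.59) and 0.88 without injured meninges 2. Uninjured meninges lay below lung in every library, with a mean of 0.92 ± 0.93 CPM against 19.1 ± 11.3 CPM (SD, n = 3 each). The log2 fold change was -4.36 ± 1.74 (95% interval -8.06 to -0.67, edgeR adjusted p = 0.46).

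Plaur and Cd55 were the genes with the widest range between groups, both with their lowest mean in uninjured meninges, and the bases before their transcription starts are shown for that reason. Of the 8 genes, 3 (Cd48, Cd55 and Plaur) matched an entry in the RefSeq promoter table of build GRCm38.p6. The 250 bases before the start of Plaur were read from chr7:24462233-24462482 on the plus strand and those of Cd55 from chr1:130462745-130462994 on the minus strand, each written 5′ to 3′. Capitals mark AP-1 motifs (TGANTCA) and GC boxes (GGGCGG), searched on both strands and allowed to overlap.
Plaur: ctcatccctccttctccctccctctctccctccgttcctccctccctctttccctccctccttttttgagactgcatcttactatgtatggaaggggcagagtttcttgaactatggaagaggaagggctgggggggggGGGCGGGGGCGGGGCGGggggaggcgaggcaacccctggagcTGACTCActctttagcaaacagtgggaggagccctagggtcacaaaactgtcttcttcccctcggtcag
Cd55: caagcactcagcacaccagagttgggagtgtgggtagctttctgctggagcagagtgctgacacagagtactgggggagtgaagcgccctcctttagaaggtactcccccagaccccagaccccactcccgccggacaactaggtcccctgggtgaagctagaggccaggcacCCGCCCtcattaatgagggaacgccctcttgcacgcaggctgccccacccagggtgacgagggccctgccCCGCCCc
The Plaur stretch held 1 AP-1 motif and a run of 3 GC boxes, and the Cd55 stretch held 2 GC boxes and no AP-1 motif. Among 32851 mouse promoter stretches of this length in the table, 6.75% held an AP-1 motif and 32.7% a GC box. A TATA box (TATAAA, in 12.4% of all stretches) and the NF-kB motif (in 3.90%) had no match in either. These matches describe the letters of the reference and are no measure of binding.

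Cd48 encodes a SLAM-family adhesion molecule that binds CD2 and 2B4 (CD244). It had 12.8, 4.14 and 13.4 CPM in injured meninges, 25.4, 24.0 and 16.3 in uninjured meninges and 28.5, 8.47 and 37.2 in lung. Injured meninges lay below uninjured meninges without overlap, with a log2 fold change of -1.11 ± 0.71 that was not called (95% interval -2.61 to 0.39, edgeR adjusted p = 0.69), or -0.74 without injured meninges 2, the lowest library. Cd48, Cd55 and Cd24a were lowest in lung 2 among the lung libraries. That library also had the lowest sums of macrophage markers, of endothelial markers (256 CPM, against 730 and 603 in lung 1 and lung 3) and of epithelial markers (686 CPM, against 2152 and 1308). The part of these cells in the 3 genes was not tested.

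Cd24a encodes heat-stable antigen, a short mucin-like protein of immature lymphocytes, erythroid cells and epithelia. It had 13.9, 0.95 and 15.1 CPM in injured meninges, 44.3, 9.42 and 12.9 in uninjured meninges and 56.7, 46.0 and 75.4 in lung. All meningeal libraries lay below all lung libraries, and injured and uninjured meninges overlapped, with a log2 fold change of -1.15 ± 0.79 (95% interval -2.83 to 0.52, edgeR adjusted p = 0.72) that was -0.16 without uninjured meninges 1 and -0.62 without injured meninges 2. The log2 fold change was -2.57 ± 0.82 for injured meninges over lung (95% interval -4.32 to -0.82, edgeR adjusted p = 0.17) and -1.42 ± 0.79 for uninjured meninges over lung (95% interval -3.10 to 0.26, edgeR adjusted p = 0.75). DESeq2 called it for injured meninges over lung (adjusted p = 0.020). Epithelial markers, 10 in all, summed to 10.5 to 27.7 CPM in injured meninges, 4.03 to 11.6 in uninjured meninges and 686 to 2152 in lung. Erythroid markers, 7 in all, summed to 58.4, 24.4 and 9.21 CPM in injured and 83.8, 25.5 and 5.64 CPM in uninjured meninges. In lung the erythroid sum was 10.8 to 29.2 CPM. Uninjured meninges 1 was the highest meningeal library for both this sum and Cd24a. Within injured meninges this sum was lowest in library 3 and Cd24a in library 2. The part of these cells in the level of Cd24a was not tested. Within lung both Cd24a and the epithelial sum were lowest in lung 2, while Cd24a was highest in lung 3 and the epithelial sum in lung 1.

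In injured against uninjured meninges, none of the 6 tested genes was called, against 0.192% of all 15117 genes, none had an unadjusted p under 0.05, against 8.94% of all genes, and DESeq2 called none. Cd48 was the only tested gene without overlap of the groups, as were 12.1% of all genes. In uninjured meninges against lung, none of 8 was called by edgeR, against 0.635% of all genes, while 2 (Cd55 and Plaur) had an unadjusted p under 0.05, against 7.98% of all genes, and DESeq2 called 1 (Plaur). The groups did not overlap for 4 of 8 genes, Thy1 above and Cd24a, Cd55 and Plaur below lung, against 18.2% of all genes. In injured meninges against lung, edgeR called none of 8, against 1.05% of all genes, 2 (Thy1 and Cd24a) had an unadjusted p under 0.05, against 13.3% of all genes, and DESeq2 called these 2. There the groups did not overlap for 3 of 8 genes, Plaur above and Thy1 and Cd24a below lung, against 17.8% of all genes. The median log2 fold change of the 8 genes was -0.18, -0.16 and -0.60 in these 3 comparisons, beside medians near 0 over all genes (-0.0047, 0.0019 and -0.010). The comparisons share libraries and are not independent of each other. Thy1 and Plaur are counted in both comparisons with lung, which reuse meningeal libraries of the differences known when the list was drawn up. Their part in those counts is thus no independent result.

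**Figure D3:**
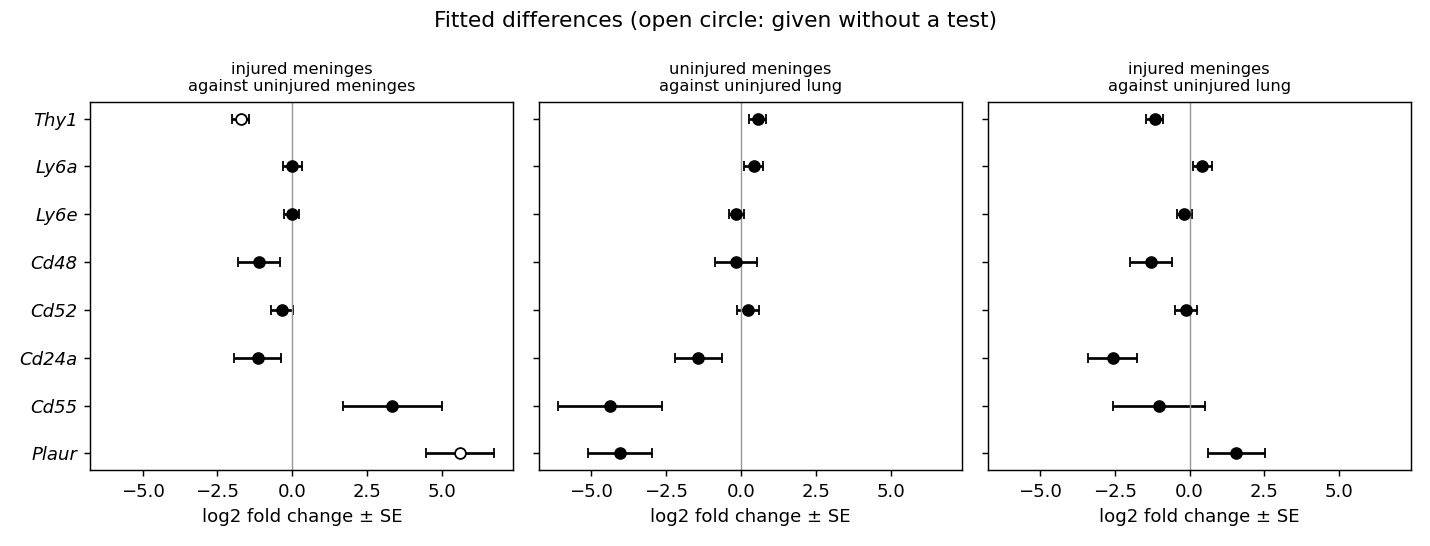
Fitted log2 fold change ± SE of the 8 genes in 3 comparisons, with the group named first over the group named second. Open circles are Thy1 and Plaur in injured against uninjured meninges, at -1.73 and 5.60, given without a test. Ly6e and Cd52 lay between -0.35 and 0.23 in all panels. Ly6a lay at 0.00 in injured against uninjured meninges, and at 0.42 and 0.43 for uninjured and injured meninges against lung. Cd55 and Plaur had the widest errors.

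To compare levels between genes, mean CPM was divided by the joint length of all exons annotated for the gene in GENCODE M21, giving CPM per kilobase. The transcripts in use can be shorter than this, which could change the order of genes. On this scale the order in injured meninges was Ly6e (182 ± 73.6), Ly6a (135 ± 53.8), Cd52 (49.6 ± 19.4), Thy1 (22.7 ± 7.23), Plaur (19.2 ± 5.41), Cd48 (8.50 ± 4.36), Cd24a (3.87 ± 3.04) and Cd55 (1.94 ± 2.78; SD, n = 3 each). The mean ± SD ranges of neighbours in this order overlapped except for Ly6a with Cd52, Cd52 with Thy1 and Plaur with Cd48. In uninjured meninges Thy1 stood at 75.1 ± 18.8 CPM per kilobase, beside Cd52 at 63.1 ± 13.6, and Plaur stood at 0.39 ± 0.59, beside Cd55 at 0.19 ± 0.19. In lung Thy1 stood at 50.7 ± 4.66, beside Cd52 at 53.7 ± 9.44, and Plaur at 6.49 ± 2.04 lay between Cd48 at 20.8 ± 12.4 and Cd55 at 3.94 ± 2.33. On this scale Thy1 and Cd52 did not differ beyond their SD in either uninjured group. The SD covers spread between libraries and not error in the length.

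How alike the genes varied was described by centring the log2 CPM of each gene on its own mean over the 9 libraries and taking the mean absolute difference between 2 profiles. Ly6a, Ly6e and Cd52 were the closest, at 0.283 to 0.292 between any 2 of them. Thy1 differed from these by 0.555 to 0.712. Plaur differed from each of the other 7 genes by 2.12 to 3.06 and Cd55 by 2.12 to 2.67, the smallest value for both being that between these 2 genes. All profiles share the same 9 libraries and their scaling. Among 7370 other named genes averaging 10 CPM or more, the profiles nearest to Thy1 were those of Snx3, a sorting nexin (0.195), Rnf113a2 (0.259), Slc25a4, a mitochondrial ADP/ATP carrier (0.265), Sema4a, a semaphorin (0.265), and AW112010 (0.266), against a median of 0.814 over all genes compared. Snx3 averaged 12.1 ± 3.67 CPM in injured meninges, 34.8 ± 6.48 in uninjured meninges and 20.9 ± 4.46 in lung. Nearest to Plaur were Tnfrsf9, the costimulatory receptor 4-1BB (0.938), Ramp3, a receptor-associated membrane protein (1.02), Pdcd1, the inhibitory receptor PD-1 (1.07), Raph1 (1.11) and Dkk3 (1.16), against a median of 2.58. Tnfrsf9 averaged 59.0 ± 32.2 CPM in injured meninges, 1.68 ± 1.51 in uninjured meninges and 13.5 ± 3.58 in lung.

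**Figure D4:**
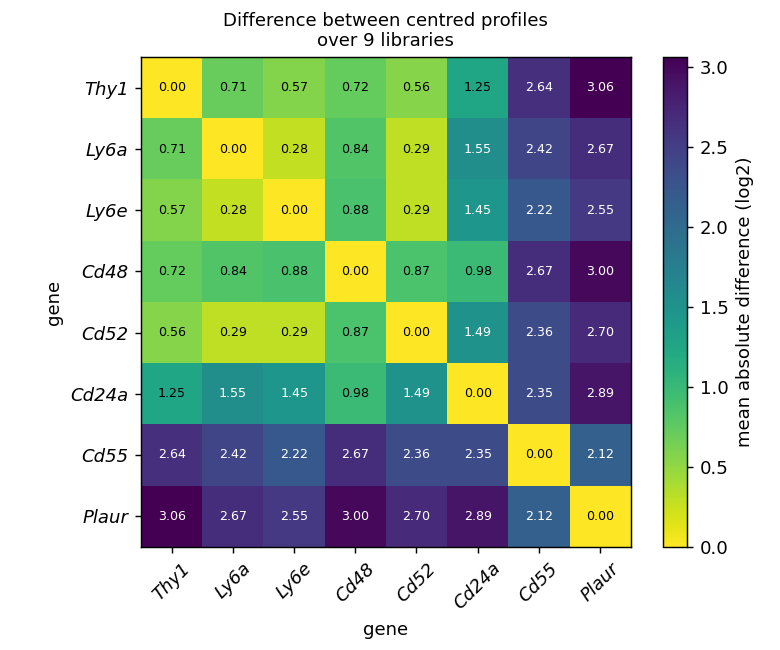
Mean absolute difference, on the log2 scale, between the centred profiles of each pair of genes over the 9 libraries, with darker cells for larger differences. Ly6a, Ly6e and Cd52 form the closest set, at 0.28 to 0.29, while Plaur lies 2.12 to 3.06 and Cd55 2.12 to 2.67 from each of the other genes.

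Over all genes, the shares in injured against uninjured meninges, uninjured meninges against lung and injured meninges against lung were 0.192%, 0.635% and 1.05% called by edgeR and 8.94%, 7.98% and 13.3% with an unadjusted p under 0.05. Of 24 tested genes of anchor assembly and attachment, edgeR called none in any of the 3 comparisons, while 2, 1 and 2 had an unadjusted p under 0.05 for injured against uninjured meninges, uninjured meninges against lung and injured meninges against lung, and DESeq2 called 0, 0 and 1 (Pigx). Their median log2 fold changes were 0.22, 0.15 and 0.30. The most abundant, Pigm, a mannosyltransferase of the anchor core, averaged 117 ± 37.6 CPM in injured meninges, 66.9 ± 7.77 in uninjured meninges and 110 ± 23.3 in lung (SD, n = 3 each). Of 15 genes listed under anchor remodelling, transport and release, edgeR called none in any comparison. Of these genes 2, 1 and 2 had an unadjusted p under 0.05 in the same order, and DESeq2 called 0, 0 and 1 (Cav1). Cav1 encodes caveolin-1, a membrane coat protein that does not act on the anchor itself. It averaged 1.84 ± 2.13 CPM in injured meninges, 16.5 ± 16.4 in uninjured meninges and 178 ± 71.5 in lung. What part other lung cells had in it was not tested. The medians of the 15 genes were 0.06, -0.33 and -0.14. Tmed5, a cargo receptor of the early secretory pathway and the most abundant of these, averaged 134 ± 21.3 CPM in injured meninges, 79.1 ± 7.54 in uninjured meninges and 77.0 ± 22.9 in lung.

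Other Ly6 and uPAR family genes were scarce, since 6 of 14 in the table passed the filter and none of these exceeded 9.51 CPM in the mean of any group. Neither edgeR nor DESeq2 called any, and 1, 1 and 0 had an unadjusted p under 0.05, against 8.94%, 7.98% and 13.3% of all genes. The most abundant was Ly6c1, a marker of monocytes and endothelium, with 2.35 ± 2.58 CPM in injured meninges, 4.10 ± 3.45 in uninjured meninges and 9.51 ± 7.01 in lung. A further 32 tested genes were listed as other GPI-anchored surface genes, though the products of some, among them Lpl and Ulbp1, have no such anchor. For injured against uninjured meninges edgeR called none of the 32, and DESeq2 called Prnp alone. In that comparison 7, Lpl among them, had an unadjusted p under 0.05, against 8.94% of all genes. Of the 7 genes, Lpl, Gpc6, Car4, Cd14 and Art4 averaged under 1 CPM in at least 1 of these groups, while Mmp25 and Prnp did not. In each comparison with lung edgeR called 1, Cntn1, lower in meninges, against 0.635% of all genes for uninjured and 1.05% for injured meninges. Cntn1, a neural adhesion molecule of the contactin family, averaged 46.5 ± 10.9 CPM in injured meninges, 57.2 ± 26.8 in uninjured meninges and 216 ± 32.0 in lung. Its log2 fold change was -2.22 ± 0.37 for injured meninges over lung (edgeR adjusted p = 0.0075) and -1.92 ± 0.37 for uninjured meninges over lung (edgeR adjusted p = 0.023). The uninjured call was lost without uninjured meninges 2 or 3 or lung 2 or 3. Prnp, the prion protein gene, named outside the naming rule after its values were seen, averaged 45.1 ± 11.2 CPM in injured and 12.4 ± 2.52 CPM in uninjured meninges (edgeR adjusted p = 0.31). Of this list, 7 genes for uninjured and 10 for injured meninges against lung had an unadjusted p under 0.05, against 7.98% and 13.3% of all genes. The medians of this list were 0.25, -0.99 and -1.06. The epithelial and fibroblast sums given above were also higher in every lung library than in every meningeal one, while the sum of 10 endothelial markers, at 76.3 to 191 CPM in injured meninges, 72.4 to 292 in uninjured meninges and 256 to 730 in lung, overlapped between uninjured meninges and lung. Their part was not tested.

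Of 27 tested ligands and partners of the 8 proteins, edgeR called none for injured against uninjured meninges (7 had an unadjusted p under 0.05, against 8.94% of all genes, and DESeq2 called Siglecg alone). Siglecg averaged 23.1 ± 35.6 CPM in injured meninges, where its libraries ranged from 0 to 64.1 CPM, and 0.49 ± 0.54 CPM in uninjured meninges. Of the 7 genes, Siglecg, Serpinb2, Cd2, C5ar1 and Itgax averaged under 1 CPM in at least 1 of these groups, while Cd93 and Lyn did not. In both comparisons with lung edgeR called 1, Cd93, a lectin-like receptor of endothelial and myeloid cells, against 0.635% of all genes for uninjured and 1.05% for injured meninges. Of the 27 genes, 10 for uninjured and 8 for injured meninges against lung had an unadjusted p under 0.05, against 7.98% and 13.3% of all genes. The groups did not overlap for 14 and 8 of them, against 18.2% and 17.8% of all genes. Cd93 averaged 62.8 ± 11.4 CPM in injured meninges, 35.3 ± 14.1 in uninjured meninges and 222 ± 93.5 in lung, and was lower in meninges. Its edgeR adjusted p was 0.023 for injured meninges, with a log2 fold change of -1.82 ± 0.37, and 0.0027 for uninjured meninges, with -2.65 ± 0.38. The injured call was lost without any 1 of the 3 injured libraries (edgeR adjusted p = 0.051 to 0.059) and without lung 1 or lung 3 (edgeR adjusted p = 0.070 and 0.18). The medians of this list were 0.21, -0.89 and -0.40. Ptprc was its most abundant gene. Further genes are named here outside the naming rule, after their values were seen. Itgb3, the integrin chain that with Itgav binds Thy-1, averaged 358 ± 95.6 CPM in injured meninges, 309 ± 26.6 in uninjured meninges and 248 ± 22.4 in lung. Adgre5, the adhesion receptor CD97 that binds CD55, averaged 175 ± 64.9, 218 ± 65.2 and 404 ± 35.4 CPM in the same order. It was not called, but for injured meninges over lung it lay near the threshold (log2 fold change -1.20, edgeR adjusted p = 0.052). Of 16 alternatives 6 carried it past the threshold, including DESeq2, the replicate block and the fit without injured meninges 2. Plau, the urokinase that binds uPAR, did not pass the filter and had at most 0.06 CPM in injured meninges, 1.41 in uninjured meninges and 2.95 in lung.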

How the data were processed

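RNA of sorted ILC2s was measured in 9 libraries, 3 each of injured meninges, uninjured meninges and uninjured lung, grouped by their titles. The authors deposited raw read counts per gene, whole numbers with no normalization. The submitters' processing notes name STAR, HTSeq and FastQC and the build mm9, without versions or roles. Per the labels' protocols, RNA was amplified before library preparation, so reads are not independent molecules, and intervals and floors cover counting error only. The sources used here do not state the strand setting of the counting. Other genes overlap Cd48 (Gm37010), Cd52 (Crybg2) and Cd55 (Gm16083). These neighbours had 619, 632 and 75 counts over all libraries, against 2719, 9180 and 1319 for Cd48, Cd52 and Cd55. How many reads were lost or wrongly assigned in the overlaps is not known. Related copies of Cd55 and of the Ly6 family could share reads.

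Symbols came from the table for 15969 genes and by identifier from GENCODE for 7407 more. Counts were tested with edgeR 4.0.16 (R 4.3.3): filterByExpr by group, scaling by the trimmed mean of M values, 1 mean per group over all 9 libraries, robust quasi-likelihood F tests. SE was taken as the absolute log2 fold change over √F. Alternatives were other size factors, DESeq2 1.42.0, no filter, the 6 libraries compared, a replicate block, mitochondrial ribosomal RNA left out, no robust shrinkage and each library left out. The procedure was tested on simulated counts. Between libraries of a group, chi-square per degree of freedom was at least 62.8, so none repeated another.

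The genes and lists were chosen with earlier results of these data known. The naming rule took all 8 genes, of each list the called genes (up to 4 per direction) and the most abundant, and the 5 profiles nearest to Thy1 and to Plaur. Ratios and length-scaled levels are descriptions without a test.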

Additional observations from a re-analysis of the deposited data

How the results depend on the processing

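The log2 fold changes of Thy1 and Plaur kept their direction in all 3 comparisons under all 16 alternatives. In injured against uninjured meninges this was largely fixed beforehand, since both genes were listed with that difference known and their groups did not overlap. The comparisons with lung reuse the meningeal libraries of that difference. No difference past the threshold changed sign. None of the 6 genes tested in injured against uninjured meninges was called under any alternative. For injured meninges against lung the count of called genes among the 8 was 0, but 2 with DESeq2 (Thy1 and Cd24a), 1 without the filter on low counts and 1 with the replicate block (Thy1 in both), and 0 to 1 with 1 library left out. For uninjured meninges against lung it was 0, but 1 with DESeq2 and 1 without the filter (Plaur in both), and 0 to 1 with 1 library left out.

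The same-numbered libraries did not deviate together (correlation of deviations -0.039 to 0.10 over 9 pairs), so replicate numbers were not taken to pair the samples. With the replicate block, edgeR called 43, 136 and 183 genes in injured against uninjured meninges, uninjured meninges against lung and injured meninges against lung, against 29, 96 and 159 without it. In the lists, the block brought 1 call (Cav1) to the remodelling list in each comparison with lung and raised the partner list to 2 for injured meninges against lung.

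DESeq2 called 271, 420 and 789 genes in these 3 comparisons, and edgeR without the filter 78, 193 and 296. On the 6 libraries compared, edgeR called 12, 226 and 172 genes. With 1 library left out it called 18 to 27, 51 to 196 and 54 to 230. For injured against uninjured meninges DESeq2 called 1 gene of the partner list and 1 of the surface list, against 0. For uninjured meninges against lung the partner list had 4 calls with DESeq2, 3 without the filter and 3 on the 6 libraries, and the surface list had 3, 2 and 2, against 1 each. For injured meninges against lung the partner list had 4, 3 and 2, and the surface list had 5 with DESeq2 and 2 without the filter, against 1 each. The assembly list had 1 with DESeq2, and the remodelling list had 1 with DESeq2, without robust shrinkage and on the 6 libraries, against 0. With 1 library left out, calls for injured meninges against lung ranged from 0 to 3 in the partner list and 0 to 1 in the remodelling list. For uninjured meninges against lung they ranged from 1 to 3 in the partner list and 0 to 2 in the surface list. The cause of these shifts was not tested.

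The median SE was 0.27 on the log2 scale above 100 CPM and 1.77 under 10 CPM in injured against uninjured meninges. In that comparison the SE was 0.71 for Cd48, 0.79 for Cd24a and 1.66 for Cd55.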
